A study of Mus musculus with 2 samples.

Results

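Interferon response genes are the genes that cells switch on when interferon reaches them, and 44 of them were followed here in spatial transcriptomics (ST) of mouse liver. They were picked by gene symbol and not by a rule on measured values, although earlier results of these data were known. Of the 44, 40 were among the 19465 genes of the deposited matrices. Ifit3b, Mx1, Mx2 and Isg15 were not analysed here. By role, the measured members were 7 targets typical of type I interferon (Ifit1, Ifit2, Ifit3, Oas1a, Oas2, Oasl1 and Oasl2), 11 targets typical of interferon-γ (Gbp2, Gbp3, Gbp5, Gbp6, Gbp7, Igtp, Iigp1, Irgm1, Irgm2, Tap1 and Tap2), 3 other genes of antigen processing (Psmb8, Psmb9 and B2m), 11 other effectors, 3 RNA sensors and 5 transcription factors.

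The study compared a liver section of 1 AEG-1ΔMAC animal with that of 1 AEG-1fl/fl animal, with 1 library per genotype and without replicates. The first is called the knockout section, and the second the control section. AEG-1, encoded by Mtdh, is floxed in both animals. In the knockout it is deleted in myeloid cells, such as macrophages and neutrophils, by Cre recombinase expressed from the Lyz2 locus. Per the labels, both mice were 27 weeks old and received the same HF/HSD (high fat, high sugar) diet from 7 weeks of age, but the study's text describes this assay on animals fed a control diet, so the diet of these mice could not be settled. In the formalin-fixed tissue, probe pairs for each gene were hybridised and counted as unique molecular identifiers (UMIs) per spot, and each spot covers a small area with several cells, often of different types.

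Type I interferons (the IFN-α family and IFN-β) signal through the receptor made of IFNAR1 and IFNAR2 to a complex with STAT2 and IRF9, which binds the interferon-stimulated response element (ISRE) in promoters. Interferon-γ, made mainly by T cells and NK cells, signals through IFNGR1 and IFNGR2 to the gamma-activated site (GAS) of promoters, and it induces IRF1, which itself binds ISRE-like sequences. Many genes answer to both, so that the classes differ in degree. In liver, hepatocytes as well as Kupffer cells, endothelium and infiltrating leukocytes can respond.

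The core letters of both elements were searched in RefSeq promoters of GRCm38.p6, on both strands, from 250 bases before to 50 bases after the gene start. The ISRE core was GAAANNGAAA, and the GAS core was TTCNNNGAA, which reads the same on both strands. A promoter was given for 32 of the 44 members, among the type I targets for Ifit3b but not for Oas2. The type I counts of promoters thus include Ifit3b, which holds the ISRE core, and differ from the measured type I targets. The ISRE core lay in 18 of these 32, against 3.99% of all 27025 genes with a promoter, and in 4 of 7 type I targets and 7 of 8 gamma targets. The GAS core lay in 11 of 32, against 9.55% of all genes, and in 2 of 7 type I targets and 4 of 8 gamma targets. A match is a description of letters and not a binding site.

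The following stretches are shown because they come from members that were called higher in the knockout section, with capitals for the core letters. The stretches of Igtp (chr11:58199491-58199551, + strand) and Irgm2 (chr11:58214882-58214942, + strand) hold the GAS core 45 and 75 bases before the start and the ISRE core 34 and 64 bases before it, without shared letters, and are identical at 59 of 61 bases. The Gbp7 stretch (chr3:142530263-142530312, + strand) holds the ISRE core on the opposite strand. The Ifit1 stretch (chr19:34640784-34640833, + strand) holds it in 2 copies, also on the opposite strand, as does that of Ifit3 in a single copy. The Ifit3 stretch (chr19:34583387-34583436, + strand) is identical at 50 of 50 bases to that of its neighbour Ifit3b, which was not analysed here.
Igtp: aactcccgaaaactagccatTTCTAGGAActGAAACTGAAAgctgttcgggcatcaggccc
Irgm2: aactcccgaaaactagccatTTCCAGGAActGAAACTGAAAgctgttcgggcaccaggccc
Gbp7: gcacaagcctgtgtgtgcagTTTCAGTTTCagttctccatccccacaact
Ifit1: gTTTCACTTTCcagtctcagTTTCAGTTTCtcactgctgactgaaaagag
Ifit3: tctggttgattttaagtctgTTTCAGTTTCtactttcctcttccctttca

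The same letters were present in members whose levels were close in both libraries. These are shown for contrast, from Oas1a (chr5:120907526-120907559, - strand), B2m (chr2:122147528-122147577, + strand) and Rsad2 (chr12:26456543-26456592, - strand), where the core of Rsad2 is on the opposite strand and that of Oas1a is in overlapping copies. Among the 14 members called higher below, 12 had a promoter and 8 of these held the ISRE core. Among the 26 members not called, 18 had a promoter and 8 held it. The GAS core was in 5 of the 12 and in 6 of the 18.
Oas1a: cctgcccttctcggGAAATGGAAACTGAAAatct
B2m: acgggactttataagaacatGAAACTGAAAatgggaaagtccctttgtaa
Rsad2: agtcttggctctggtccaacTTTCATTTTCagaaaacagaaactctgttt

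After the filter of the study, the knockout kept 2140 spots (45453286 UMIs in all) and the control 2540 spots (50322850 UMIs), with a median of 20929.5 and 18285 UMIs per spot. Levels are given as UMIs of a gene divided by all UMIs of its library, scaled to CPM. All ratios are AEG-1ΔMAC over AEG-1fl/fl unless named otherwise, on the log2 scale, with exact 95% intervals in parentheses that cover counting error only and not the spread between mice or sections. No test of the genotypes was possible. The hepatocyte marker Alb, at 8.80% and 14.2% of all UMIs, checked the labelled tissue. Mtdh was at 66.3 CPM in the knockout and 60.2 CPM in the control, with a log2 ratio of 0.14 (0.07 to 0.21), but a sum over whole spots does not check the deletion in myeloid cells. The median log2 ratio of genes with at least 10 CPM was 0.15, so that ratios are also given relative to this value. In spots, fewer cells of a type and less RNA per cell cannot be told apart.

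The interferon response genes stood higher in the knockout section than in the control section. As sums over the whole section, the gamma targets did so by more than the type I targets, while single genes of the classes overlapped in their ratios. The 40 members made up 0.440% of UMIs in the knockout and 0.380% in the control, of which B2m alone held 63.0% and 65.2%. The ratio was above 1 for 37 of 40 members and above the median of all genes for 33 of 40. A ratio above 1 was common over all genes, as Irf1, at a log2 ratio of 0.01, stood above only 29.5% of them. Intervals lay above 1 for 31 of 40 members, against 46.4% over all genes. The median log2 ratio of the members was 0.39. A gene was called where its mean was at least 1 CPM, its ratio at least 1.5 either way, and its interval wholly on that side of 1. By this rule of size, 14 of 40 members were higher in the knockout (Ifit1, Ifit3, Gbp2, Gbp3, Gbp5, Gbp6, Gbp7, Igtp, Irgm2, Tap1, Psmb8, Psmb9, Zbp1 and Irf7), against 5.28% of all 11178 genes. No member was lower, against 3.9% of all genes. Relative to the median of all genes, 7 of 40 members (Ifit1, Ifit3, Gbp2, Gbp3, Gbp6, Gbp7 and Igtp) were higher, against 3.22% of all genes.

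**Figure D1:**
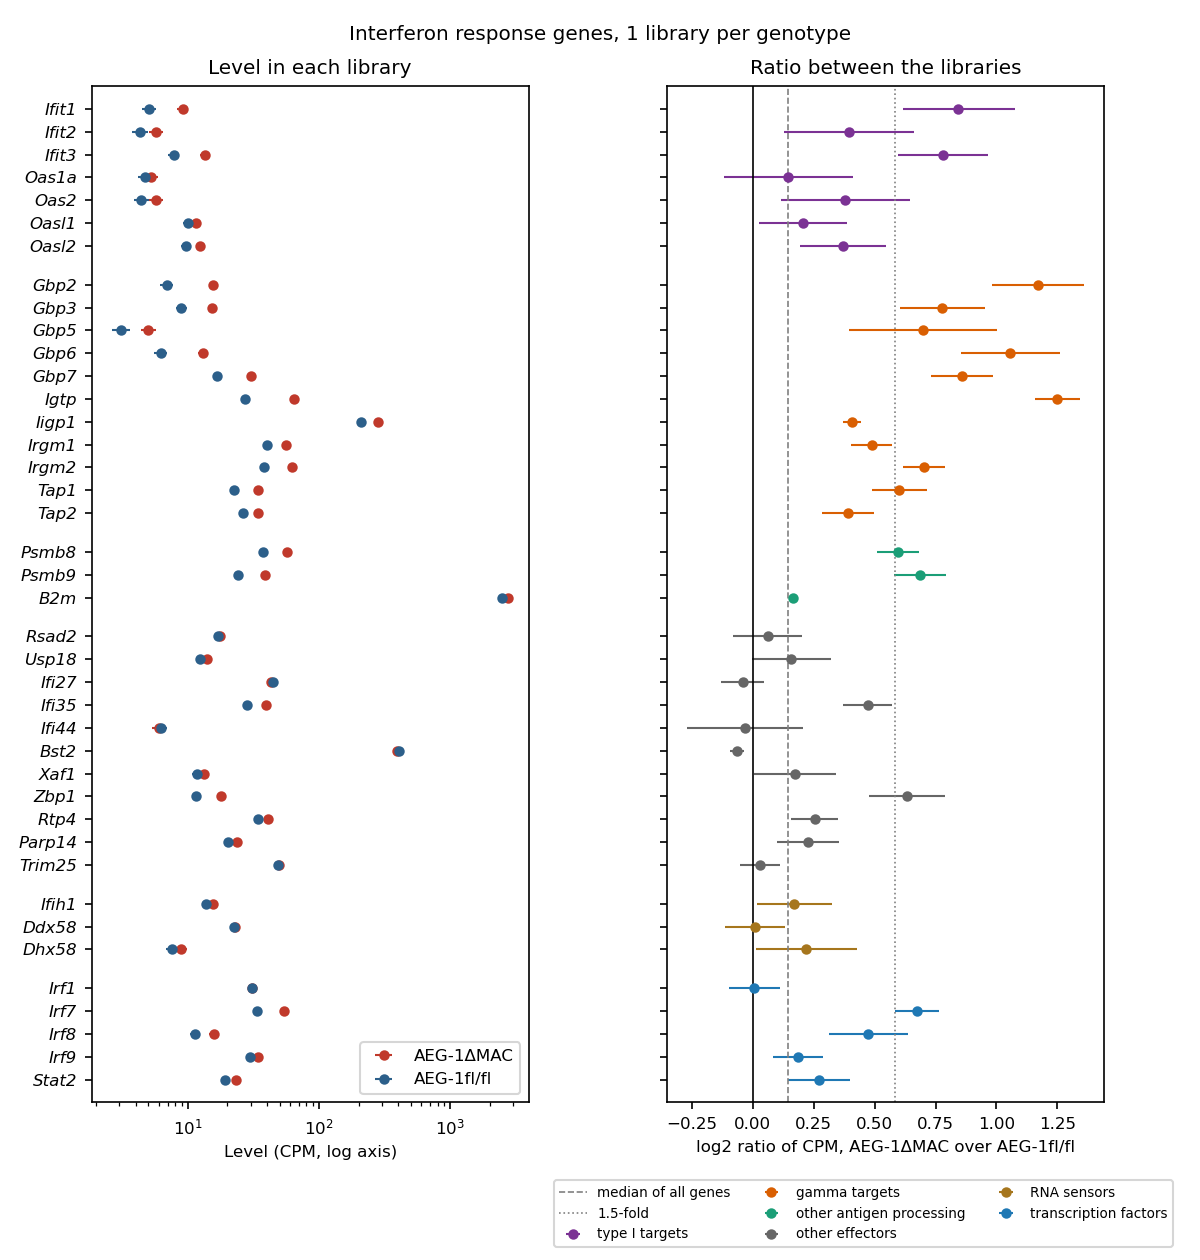
Left, level of each of the 40 measured interferon response genes in CPM on a log axis, with AEG-1ΔMAC in red and AEG-1fl/fl in blue and bars for exact Poisson 95% intervals. Right, log2 ratio of AEG-1ΔMAC over AEG-1fl/fl with exact binomial 95% intervals, coloured by role, where the dashed line is the median of all genes (0.15) and the dotted line is 1.5-fold. All 5 Gbp genes lie to the right of the dotted line, while the 4 Oas and Oasl genes lie to its left.

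Among the gamma targets, 8 of 11 were called higher and all 11 intervals lay above 1, against 46.4% over all genes. Their summed level was 608.3 CPM in the knockout and 405.4 CPM in the control, a log2 ratio of 0.59 (0.56 to 0.61). The median over the 11 genes was 0.70. Iigp1, an immunity-related GTPase (IRG) that attacks the vacuoles of intracellular parasites, held the largest part of this sum, at 278.9 CPM in the knockout and 210.1 CPM in the control, log2 ratio 0.41 (0.37 to 0.45). Without Iigp1 the log2 ratio of the sum was 0.75 (0.72 to 0.79).

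Igtp, an IRG that guards the cell's own membranes, showed the highest ratio of all members. It was at 64.3 CPM in the knockout and 27.0 CPM in the control, with a log2 ratio of 1.25 (1.16 to 1.34), which is 2.38-fold. Its neighbour Irgm2, of the same guarding class, was at 61.8 CPM and 37.9 CPM, with a log2 ratio of 0.70 (0.62 to 0.79). The annotated spans of these genes overlap on the same strand (chr11:58199556-58222782 together), so that a share of the probes could serve both. Irgm1, the third gene of this guarding class, was at 56.1 CPM and 40.0 CPM, with a log2 ratio of 0.49 (0.40 to 0.57), and was not called.

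Guanylate-binding proteins (GBPs) are large GTPases that coat vacuoles and bacteria, and all 5 measured were called higher. Their summed level was 78.7 CPM against 41.6 CPM, a log2 ratio of 0.92 (0.84 to 1.0). Gbp2 was at 15.5 CPM in the knockout and 6.88 CPM in the control, with a log2 ratio of 1.17 (0.98 to 1.36). Gbp6 was at 12.9 CPM and 6.22 CPM, with a log2 ratio of 1.06 (0.86 to 1.26). Both were thus more than 2-fold apart, as was Igtp, and these 3 were the only members at that size. Gbp7 was at 29.99 CPM and 16.5 CPM, with a log2 ratio of 0.86 (0.73 to 0.99). Gbp3 was at 15.3 CPM and 8.92 CPM, a log2 ratio of 0.78 (0.60 to 0.95), and Gbp5 at 4.99 CPM and 3.08 CPM, a log2 ratio of 0.70 (0.40 to 1.0). Gbp2, Gbp3, Gbp5 and Gbp7 lie together at chr3:142493978-142638008. GBP genes are close copies of each other, and how the probes divide them is not known from the files.

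Genes of antigen processing for MHC class I formed a middle range. Tap1 and Tap2 encode the transporter that carries peptides to MHC class I, and Psmb8 and Psmb9 encode subunits of the immunoproteasome that makes these peptides. The 4 genes are neighbours at chr17:34181987-34216321, and 3 of 4 were called. Tap1 was at 34.3 CPM in the knockout and 22.6 CPM in the control, with a log2 ratio of 0.60 (0.49 to 0.71), and Tap2 at 34.2 CPM and 26.1 CPM, with 0.39 (0.28 to 0.50). Psmb8 was at 56.6 CPM and 37.4 CPM, with a log2 ratio of 0.60 (0.51 to 0.68), and Psmb9 at 38.9 CPM and 24.2 CPM, with 0.69 (0.58 to 0.79). B2m, the light chain of MHC class I, was at 2772 CPM and 2474 CPM, a log2 ratio of 0.16 (0.15 to 0.18) that is close to the median of all genes.

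Among the type I targets only Ifit1 and Ifit3 were called, while the ratio of Ifit2 was close to those of Oas2 and Oasl2. The class as a whole stood at 63.1 CPM in the knockout and 45.9 CPM in the control, a log2 ratio of 0.46 (0.38 to 0.54), with a median of 0.38 over the 7 genes and 2 of 7 called. IFIT proteins bind viral RNA that lacks the host cap, and the 3 Ifit genes summed to 28.2 CPM against 17.2 CPM, a log2 ratio of 0.71 (0.59 to 0.84). Ifit1 was at 9.13 CPM and 5.09 CPM, with a log2 ratio of 0.84 (0.62 to 1.07). Ifit3 was at 13.4 CPM and 7.79 CPM, with a log2 ratio of 0.78 (0.59 to 0.97). Ifit2, the third gene of this cluster (chr19:34550694-34650009), was at 5.70 CPM and 4.33 CPM, with a log2 ratio of 0.40 (0.13 to 0.66).

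The Oas genes, whose products make the 2-5A signal that activates RNase L or are related to those that do, were closer in both libraries. Their 4 members summed to 34.9 CPM against 28.7 CPM, a log2 ratio of 0.28 (0.18 to 0.38), and none of the 4 was called. Oasl2 was at 12.4 CPM and 9.62 CPM, with a log2 ratio of 0.37 (0.19 to 0.55). Oasl1, which limits translation of Irf7, was at 11.5 CPM and 9.98 CPM, with 0.21 (0.03 to 0.39). Oas2 was at 5.74 CPM and 4.41 CPM, with 0.38 (0.12 to 0.65), and Oas1a at 5.21 CPM and 4.71 CPM, with 0.15 (-0.12 to 0.41). The intervals of the Ifit sum and the Oas sum did not overlap. Ifit2 by itself, with 0.40 (0.13 to 0.66), was not apart from the Oas genes. Oas1a has near-identical copies, and its count was treated as uncertain.

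Most of the other effectors were at nearly the same level in both sections. Their sum, most of which was Bst2, was 654.5 CPM in the knockout and 641.2 CPM in the control, a log2 ratio of 0.03 (0.01 to 0.05). The median over the 11 genes was 0.16, and 1 of 11 was called. Intervals lay above 1 for 5 of 11, close to the 46.4% over all genes. That gene was Zbp1, a sensor of Z-form nucleic acid that triggers cell death, at 18.0 CPM in the knockout and 11.6 CPM in the control, log2 ratio 0.63 (0.48 to 0.79). Bst2 (tetherin), which holds budding virus at the cell surface, was at 389.7 CPM and 407.1 CPM. Its log2 ratio of -0.06 (-0.09 to -0.03) was the 1 interval of a member that lay below 1, as did 12.9% over all genes. Trim25, a ubiquitin ligase of RNA sensing, was at 49.6 CPM and 48.6 CPM, with a log2 ratio of 0.03, and Ifi27 at 42.9 CPM and 44.1 CPM, with -0.04. Rsad2 (viperin), an enzyme that makes a chain terminator of viral RNA, was at 17.6 CPM and 16.9 CPM, with a log2 ratio of 0.06 (-0.08 to 0.20). The other 6 ran from -0.03 for Ifi44 to 0.47 for Ifi35. For members so close to 1, the side of 1 depends on the scaling: relative to the median of all genes, 6 of the 11 effectors were higher.

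The RNA sensors Ifih1 (MDA5), Ddx58 (RIG-I) and Dhx58 (LGP2) recognise viral RNA in the cytosol, and 0 of 3 were called. Ifih1 was at 15.5 CPM in the knockout and 13.8 CPM in the control, with a log2 ratio of 0.17. Ddx58 was at 22.6 CPM and 22.5 CPM, with a log2 ratio of 0.01, and Dhx58 at 8.84 CPM and 7.59 CPM, with 0.22.

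Of the 5 transcription factors, only Irf7 was called. Irf7, which amplifies the type I response, was at 53.5 CPM in the knockout and 33.5 CPM in the control, with a log2 ratio of 0.68 (0.59 to 0.77). Irf1, the main relay of interferon-γ, was at 31.0 CPM and 30.8 CPM, a log2 ratio of 0.01 (-0.10 to 0.11). The bulk level of Irf1 therefore did not separate the sections, whereas 8 of 11 gamma targets did. Irf8, a factor of monocytes, dendritic cells and B cells, was at 15.7 CPM and 11.3 CPM, with a log2 ratio of 0.47 (0.31 to 0.64). Irf9 was at 34.1 CPM and 29.9 CPM, with 0.19, and its partner Stat2 at 23.1 CPM and 19.1 CPM, with 0.27.

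Genes of the pathway outside the members were read from a list by role. Of 10 interferon ligands, 7 were measured and all were under 1 CPM, with Ifng at 4 UMIs in the knockout and 3 UMIs in the control and the other 6 at 0. By the exact interval, 0 UMIs allow up to 0.08 CPM and 0.07 CPM for each of those 6. Of the 6 receptor subunits, 0 were called, and their sum had a log2 ratio of 0.01. Ifnar2 was at 132.5 CPM and 132.9 CPM, and Ifngr2 at 46.7 CPM and 44.5 CPM. Jak1, a kinase at both receptors, was at 68.7 CPM and 71.6 CPM, with a log2 ratio of -0.06, and was not called. All 12 genes of interferon induction were measured and 0 were called, among them Irf3 at 63.8 CPM and 54.1 CPM and Mavs at 55.0 CPM and 48.2 CPM.

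Of the 5 negative regulators, 2 were called higher. Socs3, an inhibitor of cytokine receptors that also answers to IL-6, was at 24.6 CPM in the knockout and 8.51 CPM in the control, with a log2 ratio of 1.53. Socs1, the inhibitor of JAK kinases at the interferon receptors, was at 2.57 CPM and 1.55 CPM, with a log2 ratio of 0.73. The most abundant gene of this role, Irf2, was at 50.9 CPM and 45.7 CPM, and the phosphatase gene Ptpn2 at 24.0 CPM and 21.4 CPM, and neither was called. Among further effectors, 5 of 10 measured were called higher. Cxcl9, a chemokine that draws T cells and is induced mainly by interferon-γ, was at 33.9 CPM and 11.1 CPM, with a log2 ratio of 1.61. Its relative Cxcl10, which type I interferon induces as well, was at 10.1 CPM and 5.37 CPM, with 0.91. Nlrc5, the transactivator of MHC class I, was at 14.1 CPM and 7.51 CPM, with 0.91. Cd274 (PD-L1) was at 5.21 CPM and 3.14 CPM, with 0.73, and Samhd1 at 31.1 CPM and 20.6 CPM, with 0.60. Ifi47, another IRG, was at 59.0 CPM and 43.9 CPM, with 0.43, and the RNA-editing enzyme gene Adar at 29.4 CPM and 24.8 CPM, and neither was called.

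Markers of some other cell types also differed between the sections, in both directions. The 4 markers of MHC class II cells summed to 787.4 CPM in the knockout and 387.6 CPM in the control, with 4 of 4 called higher, and MHC class II genes are themselves induced by interferon-γ. The 5 T cell markers summed to 14.9 CPM and 7.31 CPM, with 4 of 5 called higher. The 4 B cell markers stood at 17.8 CPM against 32.7 CPM, with 4 of 4 called lower, and the 4 neutrophil markers at 4.86 CPM against 18.2 CPM, with 2 called lower. The 5 Kupffer cell markers summed to 574.1 CPM and 640.6 CPM but did not move together. Marco and Fabp5 were called lower, with log2 ratios of -1.38 and -1.84. Cd5l, Clec4f and Vsig4 were not called, with 0.21 (0.17 to 0.24), 0.05 (0.01 to 0.09) and -0.07 (-0.16 to 0.01). The 4 hepatocyte markers summed to 141703 CPM and 204544 CPM, with a log2 ratio of -0.53. Alb held most of this sum and was called lower, with -0.69, while Serpina1c was called higher, with 0.61. Apoa1 and Ttr were not called, with -0.26 and -0.31. The 4 NK cell markers stood at 3.48 CPM and 2.64 CPM, with 0.40 (0.05 to 0.74) and 0 of 4 called. The sums of endothelial and stellate cell markers had log2 ratios of -0.04 and -0.01, and those of cholangiocytes, monocytes and plasmacytoid dendritic cells 0.24, 0.22 and -0.09. No list was at 0 in either library. The part of these cells in the ratios of the members was not tested.

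Along the lobule the interferon response genes were nearly flat. Spots of each library were ranked by an index of pericentral (zone 3) over periportal (zone 1) hepatocyte markers and divided into 3 parts of equal size, and no member was in the index. Landmark genes outside the index had a log2 ratio of zone 3 over zone 1 of 2.09 in the knockout and 2.12 in the control for zone 3 landmarks, and -0.51 in both for zone 1 landmarks. For the gamma sum this log2 ratio was 0.01 (-0.03 to 0.05) in the knockout and -0.10 (-0.15 to -0.05) in the control. For the type I sum it was -0.12 (-0.25 to 0.01) and -0.30 (-0.46 to -0.15). In the control the type I sum was at 47.8 CPM in zone 1, 50.9 CPM in the middle part and 38.7 CPM in zone 3, so that the middle part was highest. Between the outer 10% of spots at each end of the index, the type I value was -0.09 (-0.39 to 0.21) in the control and -0.48 (-0.72 to -0.23) in the knockout. Which library leaned to zone 1 in its type I targets thus depended on the parts compared.

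Few single members were zonated. In the knockout, 0 of 40 members were called higher in zone 3, against 3.82% of all genes, and 2 of 40 were called higher in zone 1, against 4.77%. In the control, 1 of 40 was called higher in zone 3, against 4.27%, and 3 of 40 in zone 1, against 3.69%. With 40 members, counts of 0 to 3 do not stand apart from the background. Oasl1 and Irf8 were called in zone 1 in both libraries. Oasl1 went from 14.9 CPM in zone 1 to 8.86 CPM in zone 3 in the knockout, a log2 ratio of -0.75 (-1.07 to -0.43), and from 12.3 CPM to 7.77 CPM in the control, with -0.67 (-1.0 to -0.34). Irf8 went from 20.1 CPM to 11.2 CPM in the knockout, with -0.84 (-1.12 to -0.57), and from 13.0 CPM to 8.26 CPM in the control, with -0.65 (-0.98 to -0.34). Markers of MHC class II cells also leaned to zone 1, by -0.48 and -0.71 as a sum, and those of cholangiocytes by -2.57 and -2.04.

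Rsad2 ran the other way. In the control it was at 10.9 CPM in zone 1, 20.6 CPM in the middle part and 19.0 CPM in zone 3, with a log2 ratio of zone 3 over zone 1 of 0.79 (0.52 to 1.07). In the knockout it was at 15.5 CPM, 17.2 CPM and 20.2 CPM, with 0.38 (0.13 to 0.63), which was not called. The genotype ratio of Rsad2 was accordingly 0.50 in zone 1 but -0.26 in the middle part and 0.09 in zone 3. Oas2 was called in zone 1 in the control alone, with -0.61 (-1.10 to -0.13), against -0.19 (-0.64 to 0.25) in the knockout, and the intervals overlap.

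**Figure D2:**
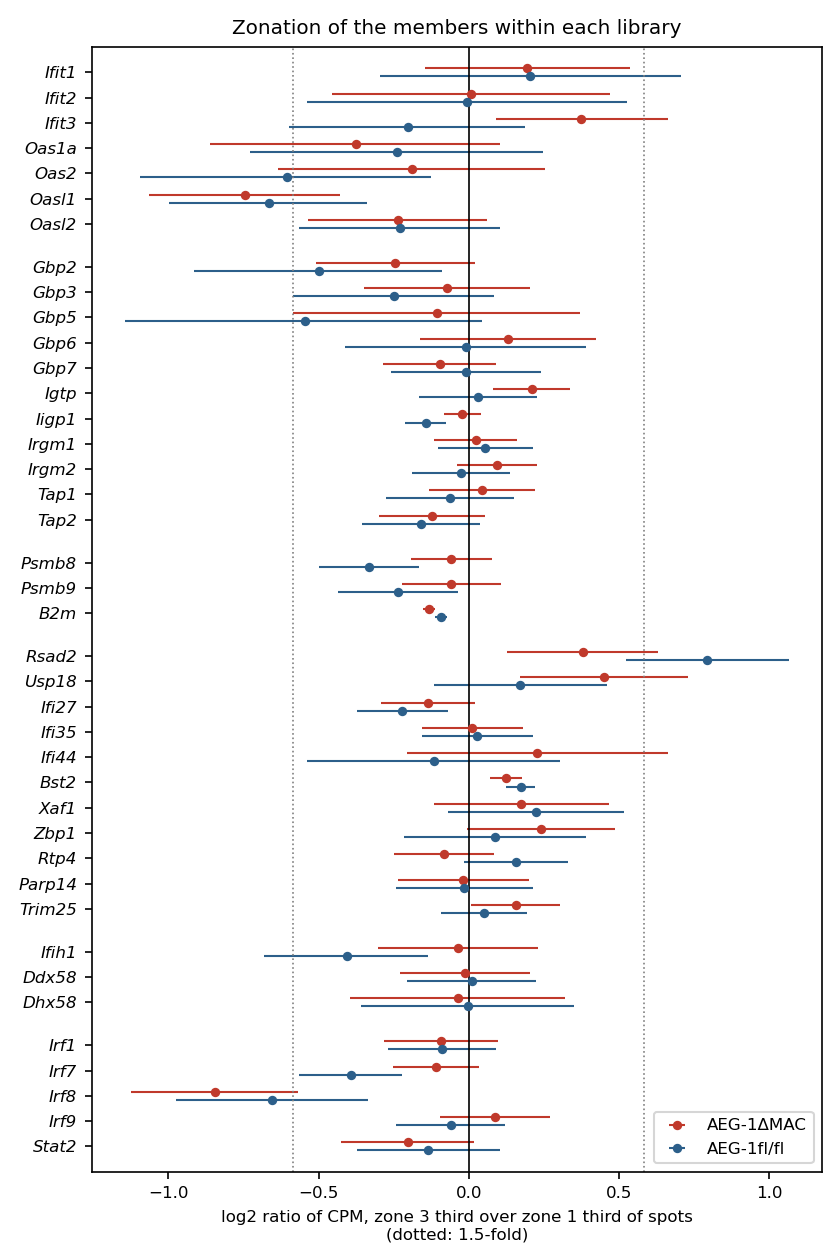
Log2 ratio of CPM of each measured interferon response gene, zone 3 part over zone 1 part of the spots, in AEG-1ΔMAC (red) and AEG-1fl/fl (blue), with exact binomial 95% intervals. The dotted lines mark 1.5-fold either way. Most members sit near 0, Oasl1 and Irf8 lie to the left in both libraries, and Rsad2 lies to the right.

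The genotype ratio of the gamma targets was present in all 3 parts of the lobule. It was 0.57 in zone 1, 0.50 in the middle part and 0.69 in zone 3 for the gamma sum, and 0.49, 0.25 and 0.68 for the type I sum, beside a median of all genes of 0.13, 0.16 and 0.15. In zone 3 both sums thus had nearly the same ratio. Igtp had 1.27, 1.02 and 1.45, and Gbp2 had 1.23, 0.86 and 1.48. Ifit1 had 1.2, 0.27 and 1.19, and Ifit3 had 0.73, 0.36 and 1.31. The middle part gave the lowest ratio for these sums and 4 genes. It gave the highest for Gbp3, with 0.57, 1.01 and 0.75, and for Gbp6, with 0.95, 1.13 and 1.09, and the difference between parts was not tested.

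To compare spots of unequal depth, each spot was thinned to 5000 UMIs, which left 2128 spots in the knockout (12 shallower spots left out) and 2532 in the control (8 left out). After thinning, 93.0% of spots in the knockout and 86.2% in the control held a UMI of a gamma target, and 24.5% and 20.5% held one of a type I target. Before thinning these shares were 99.7% and 99.4% for gamma targets and 66.0% and 54.4% for type I targets. Gamma targets were thus detected across nearly the whole section in both libraries, while most thinned spots held no UMI of a type I target. Without Iigp1, gamma targets were in 76.0% and 62.5% of thinned spots, and before thinning in 98.7% and 95.6%. The classes differ in summed level, so these shares do not compare how evenly each is spread. Igtp was found in 23.3% and 12.4% of thinned spots, Iigp1 in 71.2% and 63.4%, Ifit1 in 3.90% and 2.57%, and Bst2 in 85.5% and 85.3%.

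On this even field, a few spots of the knockout held far more gamma target RNA than the rest. The sum of gamma targets in a thinned spot had a median of 2 UMIs in both libraries, a 90th percentile of 5 in the knockout and 4 in the control, a 99th percentile of 12 and 6, and a maximum of 73 and 46. Its variance over mean, which is near 1 where RNA is spread at random, was 3.82 in the knockout and 1.46 in the control. The 1% of spots with most held 8.10% and 4.39% of its UMIs. The type I sum was as clustered in both libraries, with a variance over mean of 1.54 and 1.58, a maximum of 9 and 15, and 14.1% and 14.3% of its UMIs in the 1% of spots with most.

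**Figure D3:**
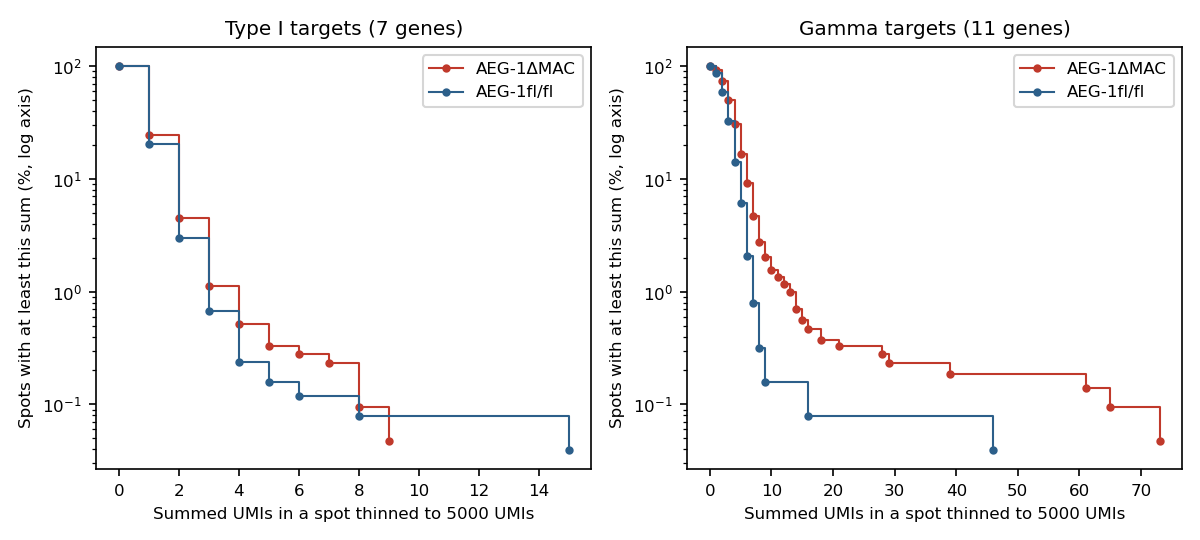
Share of spots (%, log axis) whose summed UMIs of type I targets (left, 7 genes) or gamma targets (right, 11 genes) reach at least the number on the horizontal axis, after each spot was thinned to 5000 UMIs, in AEG-1ΔMAC (red, 2128 spots) and AEG-1fl/fl (blue, 2532 spots). The lines of the type I sum run close together, while the gamma sum of AEG-1ΔMAC has a long tail, with a 99th percentile of 12 against 6.

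Clustering was found for more members in the knockout. Of 32 members with at least 10 CPM, 10 had a variance over mean of at least 1.2 there, against 2.08% of all genes, and 6 of these 10 were among the 9 gamma targets counted. In the control it was 2 of 32, against 1.51% of all genes, and these were Gbp2 and Rsad2. The values in the knockout and the control were 2.34 and 1.18 for Igtp, 1.58 and 1.14 for Iigp1, and 2.64 and 1.75 for Rsad2. Below 10 CPM, Ifit1 had 1.58 and 2.01. Gbp2 had 2.73 and 1.77, with a highest count in a thinned spot of 15 and 9. Bst2, at a higher level, had 1.01 and 1.02. Rsad2 was thus patchy while its level was alike in both sections, with 35.4% and 30.6% of its UMIs in the 1% of spots that held most of them, where a low count raises such a share in any case.

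The ratio of the gamma targets did not rest on the richest spots alone. Leaving out, in each library, the 1% of spots with the highest share of gamma targets gave a log2 ratio of the gamma sum of 0.50, and leaving out 10% gave 0.45, compared with 0.59 with all spots. The number of members called higher was 10 and 8, respectively, compared with 14. The 8 were Ifit1, Gbp2, Gbp3, Gbp6, Gbp7, Igtp, Irgm2 and Irf7. These settings were added after the values were seen.

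Whether type I and gamma targets lay in the same spots was examined in the 10% of thinned spots with the highest sum of each class, with the gene in question left out of the sum. Each value is given on thinned counts, and on all UMIs of the same spots where the 2 differ in their call or by more than 1.5 times. Type I targets were sparse, so that 117 of the 213 spots of the knockout and 177 of the 253 of the control called rich in them held a single UMI, drawn at random from 426 and 442 such spots. Spots in both selections numbered 36 of 213 in the knockout and 48 of 253 in the control, where unrelated selections of 10% would share 10%. In spots rich in type I targets, the gamma sum was 703.3 CPM against 586.9 CPM elsewhere in the knockout, a log2 ratio of 0.26 (0.15 to 0.37), and 510.7 CPM against 394.7 CPM in the control, with 0.37 (0.25 to 0.49). Thinned to 10000 UMIs these log2 ratios were 0.65 (0.58 to 0.72) and 0.22 (0.13 to 0.31), so that the order of the libraries turned with the depth. In spots rich in gamma targets, the type I sum was 102.3 CPM against 59.0 CPM in the knockout, with 0.79 (0.49 to 1.09), and 95.7 CPM against 45.1 CPM in the control, with 1.08 (0.79 to 1.37). Over spots, Pearson's r between the sums was 0.08 in the knockout (n = 2128) and 0.13 in the control (n = 2532), and 0.17 and 0.16 at 10000 UMIs. Over pairs of single genes the median r was 0.03 and 0.02 within the type I targets and 0.01 in both libraries between type I and gamma targets. Within the gamma targets it was 0.13 in the knockout and 0.03 in the control, and 0.25 and 0.03 at 10000 UMIs. With counts so sparse and from shared libraries, these r are a description and do not show how far the classes lie apart.

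Within the classes, the gamma targets kept together in the knockout. There, 7 of 11 were called higher in spots rich in the other gamma targets, against 1.94% of genes outside the sum. In the control it was 3 of 11, against 1.52%. On all UMIs of the same spots it was 9 of 11, against 1.9%, and 3 of 11, against 0.878%. For the full gamma sum, 16 of 213 rich spots in the knockout and 99 of 253 in the control were drawn at random among equal sums. The rich spots of the control were thus less sharply cut. What this does to the gaps between the libraries was not tested. Gbp2 had 61.0 CPM in the rich spots of the knockout and 10.4 CPM elsewhere, a log2 ratio of 2.55 (2.07 to 3.01), and 19.0 CPM against 6.58 CPM in the control, with 1.53 (0.80 to 2.21), or 0.92 (0.49 to 1.33) on all UMIs. Igtp had 178.4 CPM against 51.3 CPM in the knockout, with 1.80 (1.55 to 2.04), and 36.4 CPM against 26.5 CPM in the control, with 0.46 (-0.02 to 0.91). Iigp1 had 469.5 CPM against 250.4 CPM, with 0.91 (0.76 to 1.05), and 238.7 CPM against 203.9 CPM, with 0.23 (0.05 to 0.40), or 0.07 (-0.02 to 0.16) on all UMIs. The intervals of Igtp in the 2 libraries did not overlap on either count, nor did those of Iigp1. Outside the rich spots Igtp was still at 51.3 CPM in the knockout and 26.5 CPM in the control.

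Members outside the class were called higher in gamma-rich spots in 10 of 29 cases in the knockout, against 1.94% of all genes, and in 4 of 29 in the control, against 1.52%. On all UMIs of the same spots it was 13 of 29, against 1.9%, and 4 of 29, against 0.878%. Irf1 was among them in the knockout, at 54.5 CPM against 27.9 CPM elsewhere, log2 ratio 0.97 (0.53 to 1.38), but not in the control, with 26.1 CPM against 29.5 CPM and -0.18 (-0.74 to 0.34). On all UMIs these values were 0.62 (0.40 to 0.83) and 0.07 (-0.18 to 0.31). The level of Irf1 was thus alike in both sections as a whole while its share in the gamma-rich spots was not, and the intervals did not overlap. The unequal draws among equal sums apply to this gap too. Irf8 had 0.97 (0.35 to 1.54) in the knockout and 0.52 (-0.18 to 1.17) in the control, and Zbp1 had 0.91 (0.31 to 1.47) and -0.10 (-1.01 to 0.70). Rsad2 was higher in the gamma-rich spots of both libraries, with 2.01 (1.52 to 2.48) and 1.77 (1.32 to 2.20). B2m was even, with -0.04 and 0.03.

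In spots rich in type I targets, 4 of 7 type I targets were called higher in the knockout and 3 of 7 in the control. Members outside the class were called in 3 of 33 cases in the knockout, against 1.14% of all genes, and in 6 of 33 in the control, against 1.63%. In the knockout these were Rsad2, at 46.9 CPM against 13.4 CPM elsewhere, log2 ratio 1.81 (1.31 to 2.29), Usp18, which removes ISG15 from proteins and damps the type I receptor, with 1.36 (0.75 to 1.94), and Stat2, with 0.66 (0.11 to 1.17). On all UMIs of the same spots Usp18 was at 0.90 (0.59 to 1.2), and Stat2 was at 0.15 (-0.14 to 0.43) and was no longer called. Members outside the class were then called in 4 of 33 cases in the knockout, against 0.737% of all genes, and in 4 of 33 in the control, against 1.16%.

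Of the 11 gamma targets, 0 were called in the type I-rich spots of the knockout on either count, although the intervals of Igtp and Iigp1 lay above 1. In the control 5 were called, Gbp2 with 1.19 (0.40 to 1.91), Gbp6 with 1.11 (0.25 to 1.89), Igtp with 0.94 (0.51 to 1.34), Tap1 with 0.97 (0.51 to 1.40) and Gbp3 with 0.92 (0.17 to 1.61). On all UMIs of the same spots 3 of these 5 were still called, among them Gbp6 at 0.61 (0.12 to 1.07), while Gbp3 was at 0.22 (-0.23 to 0.64) and Tap1 at 0.46 (0.21 to 0.71). Igtp was then at 0.51 (0.35 to 0.66) in the knockout and 0.69 (0.47 to 0.90) in the control, and these intervals overlap. Since 117 of 213 and 177 of 253 of the type I-rich spots were a random draw among those with a single UMI, no difference between the libraries is read from these counts.

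Ifit1 and Ifit3 were higher in gamma-rich spots of both libraries when all UMIs were counted. Ifit1 was at 1.41 (1.06 to 1.74) in the knockout and 1.86 (1.45 to 2.26) in the control, and Ifit3 at 1.61 (1.34 to 1.88) and 1.11 (0.73 to 1.48). On thinned counts Ifit1 had 0.36 (-0.65 to 1.24) in the knockout, from 12 UMIs in the rich spots, and 2.56 (1.87 to 3.23) in the control, from 32 UMIs. Ifit3 had 1.66 (1.11 to 2.18) and 1.08 (0.36 to 1.75). The gap between the libraries in Ifit1 was thus found on thinned counts and not on all UMIs, where the intervals overlap.

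**Figure D4:**
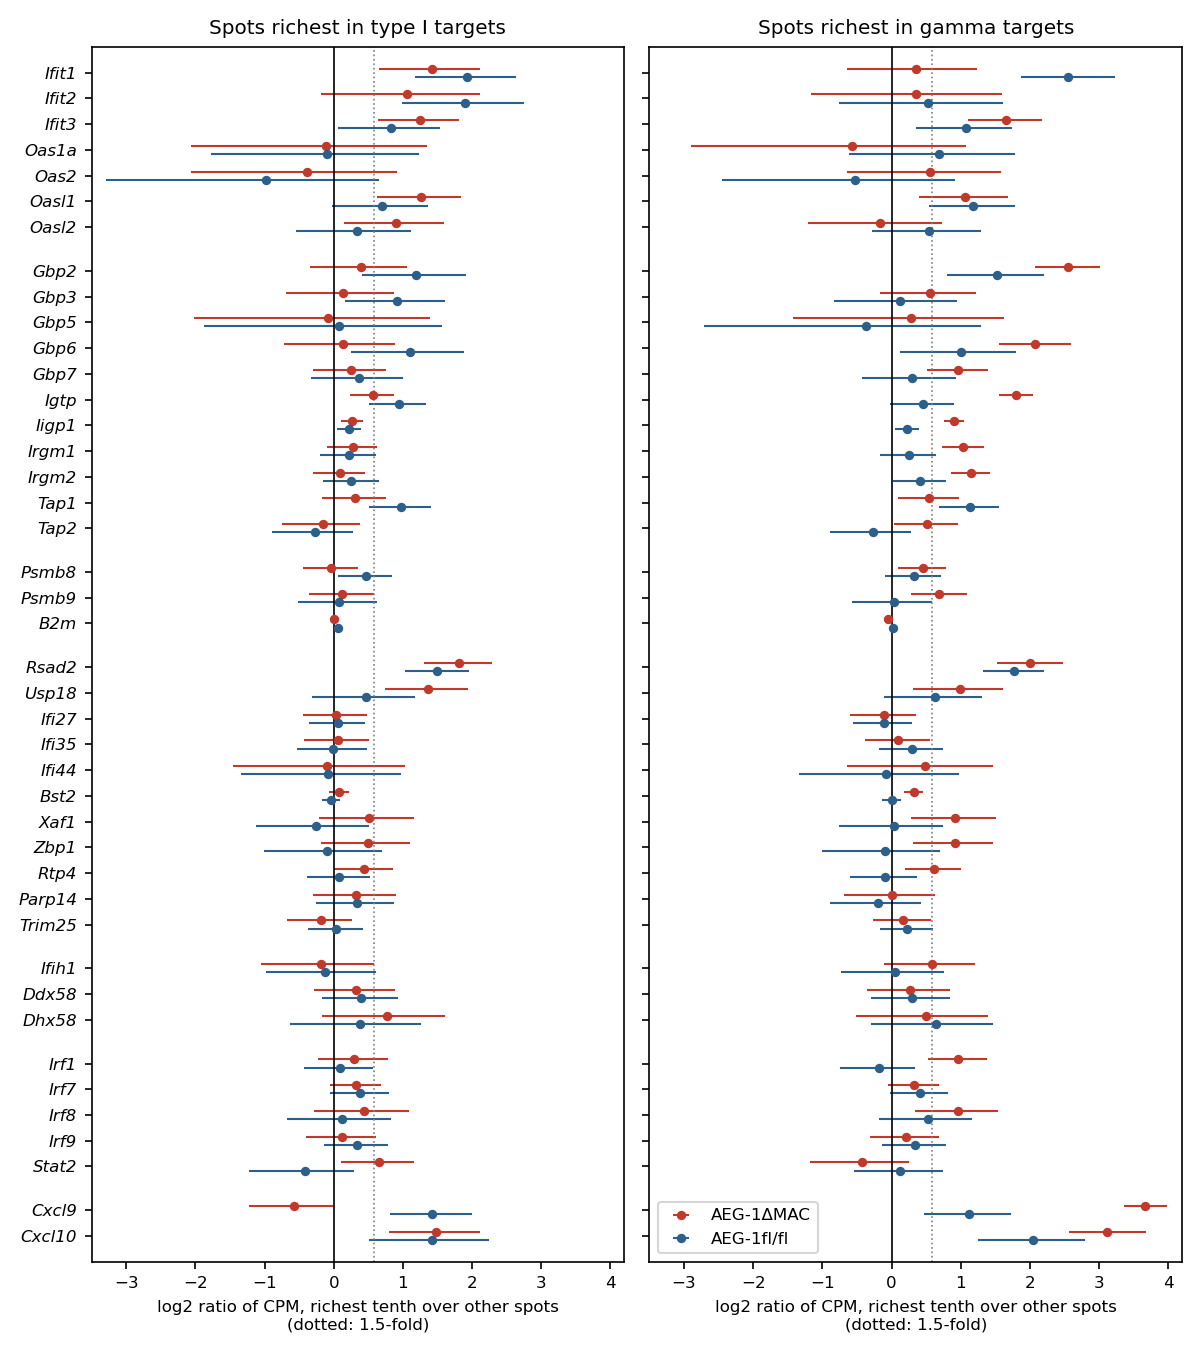
Log2 ratio of CPM in the richest 10% of spots over the other spots, for spots rich in type I targets (left) and in gamma targets (right), in AEG-1ΔMAC (red) and AEG-1fl/fl (blue), each gene left out of its own sum. Bars are exact binomial 95% intervals, the dotted line is 1.5-fold, and Cxcl9 and Cxcl10 follow the 40 members. Gbp2, Gbp6 and Igtp lie far to the right in the gamma-rich spots of AEG-1ΔMAC, and Rsad2 lies to the right in both panels.

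Cxcl9 marked the gamma-rich spots of the knockout. Of its 360 thinned UMIs there, 211 lay in those 213 spots, at 198.1 CPM against 15.6 CPM elsewhere, a log2 ratio of 3.67 (3.36 to 3.98). In the control it was at 22.1 CPM against 10.2 CPM, with 1.12 (0.47 to 1.73). In spots rich in type I targets Cxcl9 had -0.58 (-1.22 to 0.01) in the knockout and 1.42 (0.81 to 1.99) in the control, or 0.19 (-0.05 to 0.41) and 1.28 (0.97 to 1.57) on all UMIs, so that its sign in the knockout turned with the count. In gamma-rich spots the markers of MHC class II cells had 0.34 (0.25 to 0.44) in the knockout and 0.29 (0.17 to 0.42) in the control, those of T cells 0.40 (-0.33 to 1.07) and 0.31 (-0.69 to 1.19), and those of Kupffer cells 0.06 and 0.02. In the knockout, all UMIs of the same spots gave 0.49 (0.16 to 0.81) for T cells, 0.97 (0.33 to 1.56) for NK cells and 0.86 (0.31 to 1.38) for monocytes, compared with 0.47 (-1.51 to 2.0) for NK cells and 0.17 (-1.21 to 1.31) for monocytes on thinned counts. In the control, all UMIs gave 0.37 (-0.11 to 0.83) for T cells, 0.45 (-0.38 to 1.19) for NK cells and -0.24 (-1.05 to 0.48) for monocytes.

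Ranked by cell type markers in place of interferon targets, spots rich in MHC class II markers carried more gamma target RNA in the knockout. Without Iigp1, the gamma sum had a log2 ratio of 0.75 (0.61 to 0.88) there and 0.28 (0.10 to 0.45) in the control. The type I sum had 0.32 (-0.03 to 0.65) and 0.52 (0.17 to 0.84). Irf8 had 2.05 (1.55 to 2.53) in the knockout and 0.52 (-0.18 to 1.17) in the control, and Gbp2 had 2.09 (1.59 to 2.57) and 1.45 (0.71 to 2.14). In spots rich in Kupffer cell markers the gamma sum without Iigp1 had -0.20 (-0.38 to -0.03) in the knockout and 0.17 (-0.02 to 0.35) in the control. Since a spot mixes several cells, these values do not show which cells held the RNA. How far MHC class II cells and Kupffer cells account for the ratios between the genotypes was not tested.

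Genes outside the members whose counts over thinned spots were most like the type I sum were ranked by Pearson's r, averaged over both libraries, among 6901 genes with at least 10 CPM. Among the first 10 were Tmsb4x, Dvl3, Rnf213, Ppt1, Ifi47, Apoc3, Nmi, Ywhaq and Ctsc, with a mean r from 0.05 to 0.07 over 2128 and 2532 spots. At these values the order is not a finding, and it is given as a description only.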

How the data were processed

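Counts of UMIs per gene and spot were deposited by the authors for 2 formalin-fixed Visium sections, unnormalised. Per the submitters' processing notes the tools were Space Ranger 2.0.1 and Seurat 4.3.0 with mm10. Members, gene lists and comparisons were chosen with earlier results of these data known. Spots with over 50000 UMIs, or under 100 or over 7000 genes, were removed, which took 9 AEG-1ΔMAC and 3 AEG-1fl/fl spots, although the numbers of spots that the study gives after this filter equal the deposited ones. The sections share 1782 barcodes, since the arrays share positions and not cells, and both lay on 1 slide. UMIs were summed per library and divided by the library total (CPM). A count depends on how well probes bind, so ranks and shares of genes by level describe counts and not amounts of RNA. Intervals are exact (Poisson for CPM, Clopper-Pearson for ratios and shares, 95%). Spots are not replicates, so no p-value was computed. Values were printed for the 3 most abundant members of each role, all members called, and of other pathway genes those called and the 2 most abundant of each role. Of the genes this selects, 1 is not reported here. Spots with equal sums were ordered at random with a fixed seed. Promoters came from RefSeq (GRCm38.p6) and coordinates from the GENCODE annotation of GRCm38. The calculations used Python 3.11.15, numpy 2.4.6, scipy 1.17.1, pandas 2.3.3 and matplotlib 3.10.9, and R 4.3.3 with edgeR 4.0.16 for TMM factors, and were tested on simulated counts. Alternatives covered the scaling, spots, minimum level, fold, thinning depth, zone index and class membership.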

Additional observations from a re-analysis of the deposited data

How the results depend on the processing

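No paired analysis was possible because each genotype had 1 library. Values are log2 ratios unless named. With TMM factors, with totals without the 50 most abundant genes, and centred on the median of all genes, the type I sum was 0.33, 0.32 and 0.31, the gamma sum 0.46, 0.44 and 0.44, and 7 members were called higher in each. The share of called genes that were higher over all genes was 57.5% as reported and 38.6%, 36.2% and 35.8% under these scalings, which shift the median of all genes from 0.15 to 0.02, 0.00 and 0. At 2-fold, 3 members were called. Without the 1% of spots richest in gamma targets the gamma sum was 0.50. Without the richest 10% it was 0.45, the type I sum 0.36, and 8 members were called. With broad classes, in which the remaining members joined a class, the gamma sum was 0.24, and without Iigp1 it was 0.75. With the outer 10% of the zone index, zone 3 over zone 1 was -0.48 (type I) and 0.054 (gamma) in the knockout, and -0.088 and -0.20 in the control. Thinned to 10000 UMIs, 42.3% and 34.7% of spots held a type I target and 99.6% and 97.99% a gamma target in the knockout and the control. Gamma targets in type I-rich spots were then 0.65 and 0.22, and Pearson's r in the knockout was 0.17, or 0.14 with broad classes. With the top 5% of spots, gamma targets in type I-rich spots were 0.37 and 0.59, and type I targets in gamma-rich spots 1.23 and 1.66. In the control, gamma targets in type I-rich spots were 0.11 with broad classes and 0.51 without Iigp1, and type I targets in gamma-rich spots were 0.43 with broad classes and 0.74 with all UMIs of the spots. The cause of these shifts was not tested beyond what each setting changes by construction. The settings without gamma-rich spots, without Iigp1 and with all UMIs were added after the values were seen. No sum or member changed its call to the opposite direction under any setting run. The least abundant member, Gbp5, rests on 227 and 155 UMIs. The overlap of the classes in space rests on sums of a few UMIs in a spot.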
